A study of Mus musculus with 8 samples.

Results

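The 10 genes described here encode enzymes of mitochondrial fatty acid oxidation: Cpt1a, Cpt2, Acadm, Acadl, Acadvl, Hadha, Hadhb, Hadh, Acaa2 and Etfdh. They were taken by exact gene symbol from the platform annotation, which gave 21 of the 45037 probe sets that are not array controls. For comparisons per gene, the brightest probe set of each gene, by its mean over all 8 arrays, stood for it, and 18193 genes were measured in this way. RNA came from gonadal white fat of mice aged 10 weeks, and 1 Affymetrix mouse array was run for each sample. The mice were kept under normal conditions and had no treatment. The 4 knockout samples, numbered 6, 8, 9 and 10, came from aP2-Pex5 -/- mice, in which the peroxisomal import receptor Pex5 was removed in fat through the aP2 promoter. The 4 control samples, numbered 1, 2, 3 and 4, came from mice that the labels call wild type, on a Swiss background. The aP2 promoter acts mainly in adipocytes, with activity known in some other cells such as macrophages, so part of the fat pad can keep the receptor, and whole tissue was measured. The submitters describe the knockout fat as having no functional peroxisomes, and the comparison asks how its transcripts differ from those of control fat. Sex and the number of animals behind each array are not given in the labels, so a p-value reflects only how far these samples differ from each other, which may be technical.

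Mitochondria and peroxisomes both shorten fatty acids by beta-oxidation. Peroxisomes take very long and branched chains, and the shortened products pass to mitochondria, which oxidise the bulk of long and medium chains for energy. Entry into the mitochondrion is set by carnitine palmitoyltransferase I on the outer membrane, which malonyl-CoA inhibits, and in white fat this flux is low compared with storage as triglyceride.

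Several facts about the arrays bear on these genes. Both Pex5 probe sets overlapped between groups, with 1426770_at between 9.27 and 9.50 in knockouts and between 9.06 and 9.58 in controls on the log2 scale. The removed exons are not named in the labels, so the probe sets check nothing. Adiponectin (Adipoq) lay between 14.43 and 14.63 on the 8 arrays, while Ucp1, the uncoupling protein of brown fat, lay between 4.96 and 5.37. The lower quartile of all values put the arrays into 2 sets of 4, which are not a labelled batch. Set 1 held knockouts 6 and 8 and controls 1 and 2, at 4.77 to 4.79, and set 2 held knockouts 9 and 10 and controls 3 and 4, at 4.83 to 4.86. Control 1 stood apart in liver markers and Xist. It also had the highest mean of the controls for epididymis markers (6.20) and PPAR target genes (9.42). Among the PPAR target genes, Cyp4a14 read 9.19 on control 1 and 4.49 to 4.93 on the other controls. Angptl4 (11.82) and Cd36 (14.12) were instead lowest of the controls there. These genes were named after their values were seen. Its 9 liver markers averaged 10.82, against 5.83 to 8.58 on the knockout arrays and 5.89 to 7.95 on the other controls. Xist, the RNA that silences an X chromosome, read 8.27 on control 1 and 5.55 to 6.20 on the other 7 arrays, whereas the Y-linked gene Eif2s3y lay between 10.12 and 10.54 on all 8.

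No member passed the test between knockout and control fat. With limma and Benjamini-Hochberg adjustment over all genes, 0 of the 10 had an adjusted p under 0.05, and the background was 0% of 18193 genes. At an unadjusted p under 0.05 the count was also 0 of 10, against 2.56% of all genes, or 1.38% on the lower side. The knockout mean was below the control mean in 7 genes (Cpt1a, Cpt2, Acadvl, Hadha, Hadhb, Hadh and Etfdh) and above it in 3 (Acadm, Acadl and Acaa2). Over all genes 53.3% lay below. The median difference of the 10 was -0.09, with a range of -0.29 to 0.08, and that of all genes was -0.01. The knockout and control values overlapped in all 10 genes, where 1.7% of all genes had groups that did not overlap and 1.02% lay wholly lower in knockout. In bulk tissue, fewer cells of a type and less RNA per cell cannot be told apart. The median half-width of the 95% interval over all genes was 0.25, which limits what 4 arrays a group can show.

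**Figure D1:**
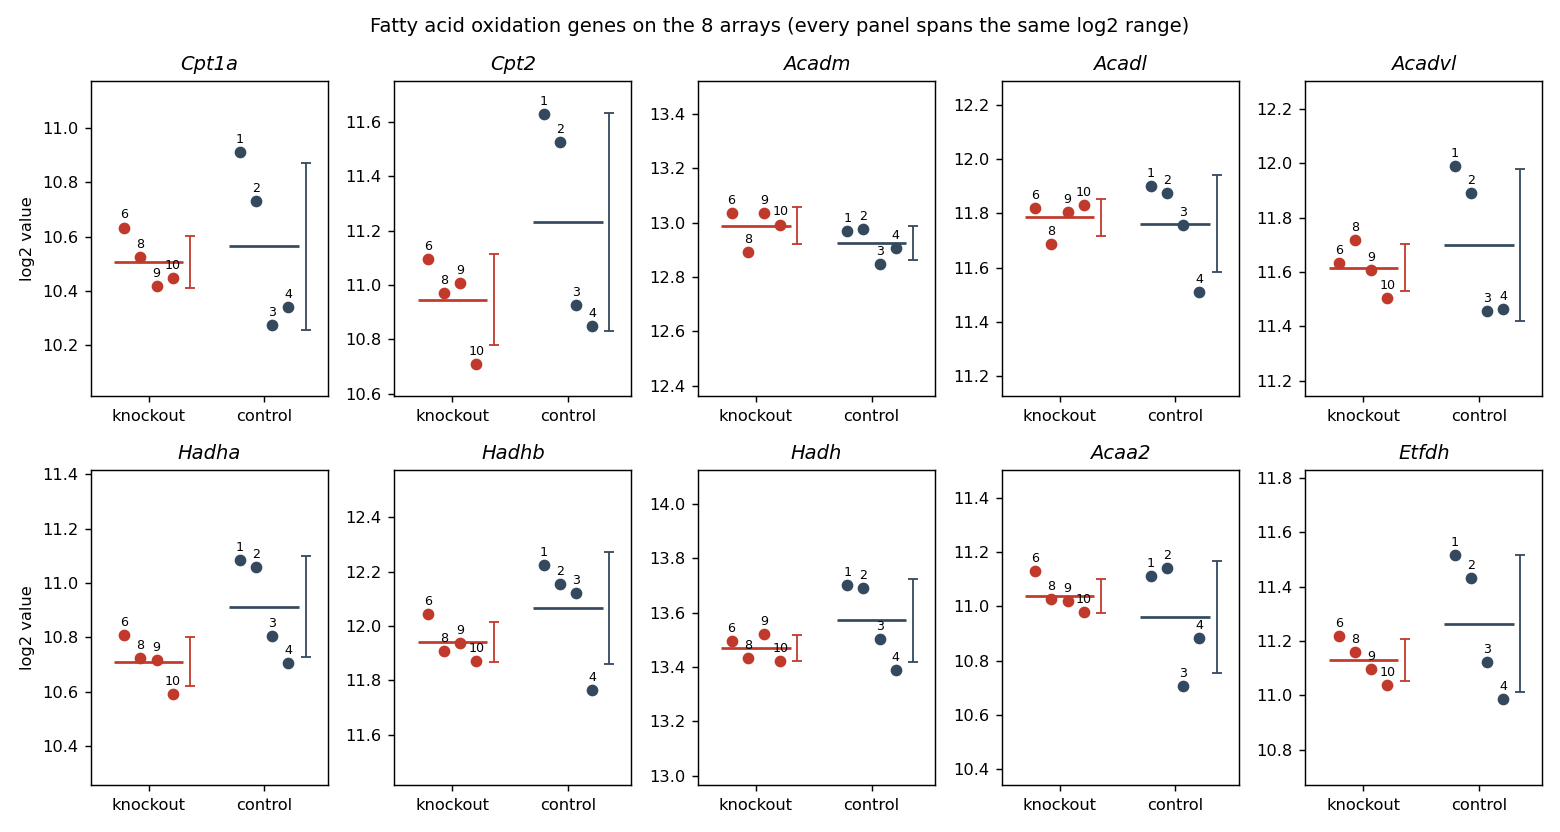
Log2 value of the 10 genes on each array, with knockout samples (red) left of control samples (grey), replicate numbers above the points, a bar at the group mean and 1 SD beside it. Every panel spans the same log2 range. Controls 1 and 2 lie above the other 6 arrays in 8 of the 10 genes, and the groups overlap in all 10.

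The carnitine palmitoyltransferases carry long-chain acyl groups across the mitochondrial membranes. Cpt2, the inner membrane enzyme that rebuilds acyl-CoA in the matrix, had the lowest difference of the 10. It read 11.10, 10.97, 11.01 and 10.71 on knockout arrays 6, 8, 9 and 10, and 11.63, 11.52, 10.93 and 10.85 on control arrays 1, 2, 3 and 4. Controls 1 and 2 were high, while controls 3 and 4 lay within the knockout range. The difference was -0.29 (95% interval -0.73 to 0.15, limma adjusted p = 0.999), a knockout to control ratio of 0.820 with an interval of 0.605 to 1.11. The other Cpt2 probe set, 1447820_x_at, was dim, below the lower quartile of all values on every array. It read 4.46, 4.38, 4.39 and 4.32 in knockouts and 4.72, 4.71, 4.44 and 4.36 in controls, with controls 1 and 2 again on top.

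Cpt1a, the liver-type isoform of the outer membrane enzyme, was measured by 3 probe sets. On the brightest, 1460409_at, the values were 10.63, 10.53, 10.42 and 10.45 in knockouts and 10.91, 10.73, 10.27 and 10.34 in controls. All 4 knockouts lay inside the control range, and the difference was -0.06 (-0.39 to 0.28, limma adjusted p = 0.999). Probe set 1438156_x_at separated the groups, with 7.60, 7.48, 7.55 and 7.54 in knockouts below 7.71, 7.84, 7.62 and 7.69 in controls. Its difference was -0.17 (-0.33 to -0.01), with an unadjusted limma p of 0.0387 and an adjusted p of 0.999 over all probe sets. Probe set 1434866_x_at gave -0.20 (-0.40 to 0.00417), with knockouts at 9.37 to 9.52 and controls at 9.45 to 9.81. An x in the name of a probe set marks probes that may also bind other transcripts.

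The acyl-CoA dehydrogenases start each round of oxidation, and each prefers a range of chain lengths. Acadvl, the very-long-chain enzyme of the inner membrane, read 11.63, 11.72, 11.61 and 11.51 in knockouts and 11.99, 11.89, 11.46 and 11.47 in controls. Its 4 knockout values lay between the high pair and the low pair of controls, and the difference was -0.08 (-0.39 to 0.22). Acadl, the long-chain enzyme, read 11.82, 11.69, 11.80 and 11.83 in knockouts and 11.90, 11.88, 11.76 and 11.51 in controls, a difference of 0.02 (-0.20 to 0.24). Its low value on control 4 was the widest gap in that group. Acadm, the medium-chain enzyme, was the steadiest of the 10. It read 13.04, 12.89, 13.04 and 12.99 in knockouts and 12.97, 12.98, 12.85 and 12.91 in controls, a span of 0.19 over the 8 arrays. The difference was 0.06 (-0.09 to 0.22), and the limma adjusted p was 0.999 for all 3 dehydrogenases.

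Hadha and Hadhb encode the alpha and beta subunits of the trifunctional protein, which carries out the later steps on long chains at the inner membrane. Hadha read 10.81, 10.72, 10.72 and 10.59 in knockouts and 11.08, 11.06, 10.81 and 10.71 in controls. Control 4 lay below 3 of the knockouts, and the difference of -0.20 (-0.44 to 0.03) had the smallest unadjusted limma p of the 10 genes, 0.0810. Hadhb read 12.04, 11.91, 11.94 and 11.87 in knockouts and 12.22, 12.15, 12.12 and 11.77 in controls. Here 3 controls were above every knockout and control 4 was the lowest array, for a difference of -0.13 (-0.37 to 0.12). Its probe set 1437172_x_at gave -0.23 (-0.49 to 0.02) and 1442732_at, which lay between 6.94 and 7.37, gave -0.03 (-0.27 to 0.22).

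Hadh, the matrix dehydrogenase for medium and short hydroxyacyl-CoA, read 13.50, 13.43, 13.52 and 13.42 in knockouts and 13.70, 13.69, 13.51 and 13.39 in controls. The difference was -0.10 (-0.30 to 0.09). These values are of probe set 1455972_x_at, whose name carries the x described above. Probe set 1460184_at, at 12.46 to 12.70, gave -0.06 (-0.22 to 0.11), and 1436756_x_at gave -0.10. Acaa2, the matrix thiolase that releases acetyl-CoA, read 11.13, 11.03, 11.02 and 10.98 in knockouts and 11.11, 11.14, 10.71 and 10.88 in controls. All 4 knockouts were above the control mean of 10.96, since controls 3 and 4 were the lowest arrays, and the difference was 0.08 (-0.16 to 0.32). Etfdh passes electrons from the dehydrogenases to ubiquinone in the inner membrane. It read 11.22, 11.16, 11.10 and 11.04 in knockouts and 11.52, 11.43, 11.12 and 10.98 in controls, a difference of -0.14 (-0.42 to 0.15). A dim Etfdh probe set, 1458152_at, read 3.75 to 4.06 in knockouts, below 4.09 to 4.18 in controls. Its difference was -0.18 (-0.37 to 0.01, limma adjusted p = 0.999 over all probe sets).

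Over all probe sets of the genes, 15 of 21 were lower in knockout, against 52.3% of all probe sets, and the median difference was -0.10. The groups did not overlap in 2 of the 21, 1438156_x_at of Cpt1a and 1458152_at of Etfdh, both lower, where the background was 1.6% of all probe sets in either direction and 0.93% lower. At an unadjusted limma p under 0.05 there was 1 lower member probe set, against 1.35% of all probe sets on that side and 2.53% in either direction. Probe sets of one gene shared the sign of the difference in all 7 genes that had more than 1. They did not always follow each other over the arrays. For Hadhb the lowest correlation between its probe sets over 8 arrays was -0.01, and for Cpt2 it was 0.980.

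**Figure D2:**
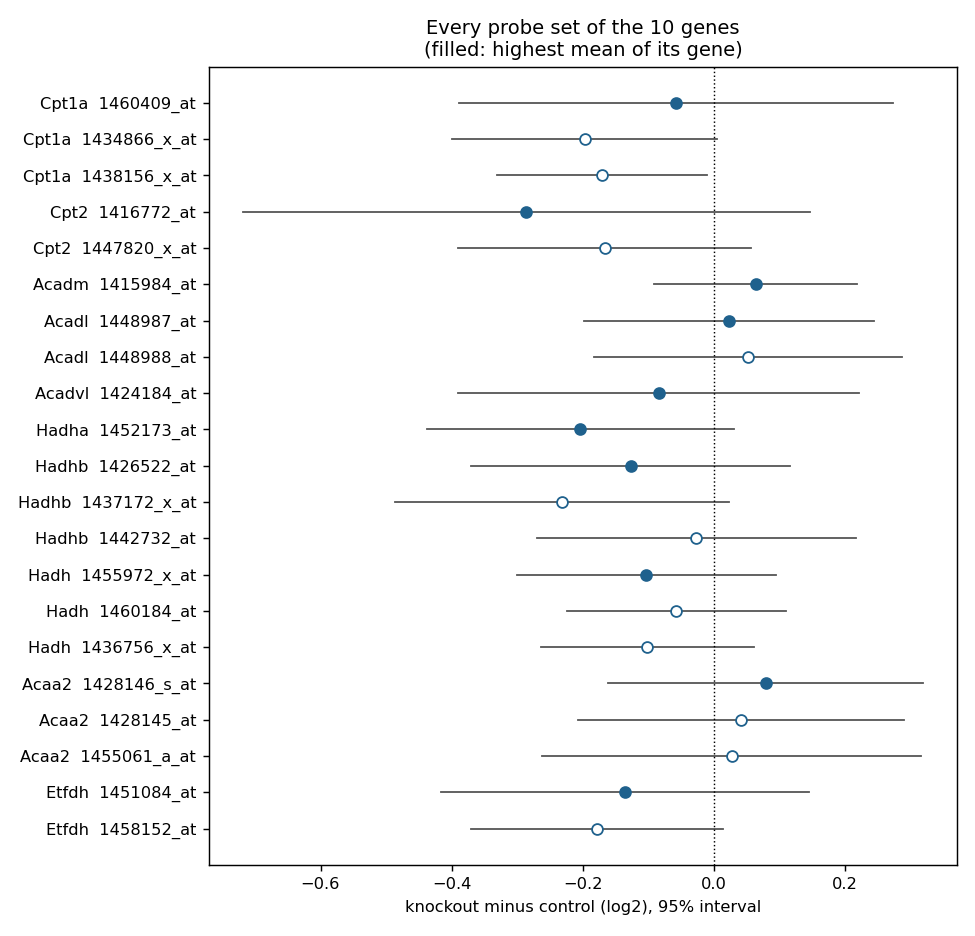
Difference between knockout and control on the log2 scale for each of the 21 probe sets, with its 95% limma interval, and filled points for the brightest probe set of each gene. Points lie between -0.29 and 0.08, and 1 interval, that of Cpt1a 1438156_x_at, lies wholly below 0.

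The genes varied together from array to array. Relative to each gene's own mean, the 10 averaged 0.04, -0.05, -0.04 and -0.12 on knockouts 6, 8, 9 and 10, and 0.25, 0.19, -0.10 and -0.17 on controls 1, 2, 3 and 4. Control 1 was the highest array for 8 of the genes. Controls 1 and 2 both lay above the other 6 arrays for 8 genes, all but Acadm and Acaa2, which 9.88% of all genes did. The low end was also in the control group, with controls 3 and 4 the lowest array for 4 genes each. The SD was larger among controls than among knockouts for 9 of the 10 genes, against 66.7% of all genes, and for 7 genes every knockout lay inside the control range.

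**Figure D3:**
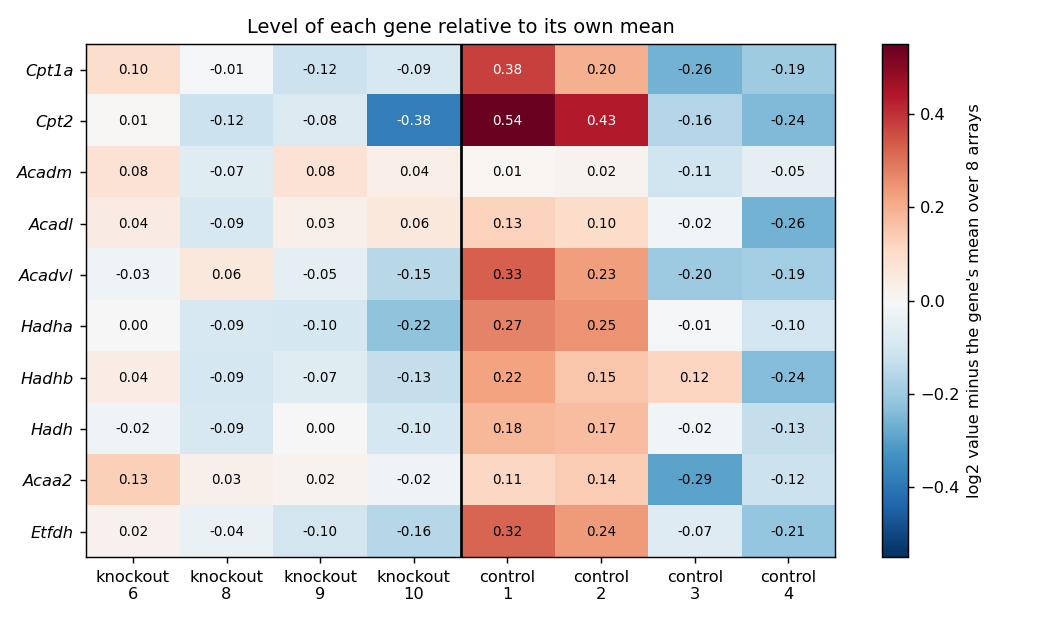
Log2 value of each gene on each array minus that gene's mean over the 8 arrays, knockouts left of the black line and controls right of it (red above the mean, blue below). Cpt2 spans the widest range, from -0.38 on knockout 10 to 0.54 on control 1, and Acadm the narrowest.

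As a description over 8 arrays, where all genes share each array's normalization and tissue makeup, the median Pearson r of the 45 pairs of genes was 0.740. The closest pairs were Cpt2 with Hadha (r = 0.973) and Cpt2 with Etfdh (r = 0.971). Etfdh was nearest to the mean of the other 9 genes (r = 0.981) and Acadm farthest from it (r = 0.317), with r from 0.05 to 0.733 between Acadm and each of the others. After the group means were removed, the median over pairs was 0.835.

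Here 4 stretches before gene starts are given because of this pattern. Cpt2 spanned the widest range, Etfdh was nearest to the mean of the others, Hadha and Hadhb lie head to head and share 1 stretch, and Acadm followed the others least. The sequences are from RefSeq on GRCm38.p6, each the 250 bases before the start, 5′ to 3′ on the strand of the gene. Capitals mark exact matches on either strand to 6 motifs: AGGTCA (the half-site of nuclear receptors such as the PPARs), CCGGAAG (ETS factors), GGGCGG (Sp1), CCAAT (the site of NF-Y), TATAAA (the TATA box) and GCATGCG (the core bound by NRF1). The NRF1 core reads nearly the same on both strands, so its matches can overlap each other.
Cpt2 (chr4:107923590-107923839, minus strand): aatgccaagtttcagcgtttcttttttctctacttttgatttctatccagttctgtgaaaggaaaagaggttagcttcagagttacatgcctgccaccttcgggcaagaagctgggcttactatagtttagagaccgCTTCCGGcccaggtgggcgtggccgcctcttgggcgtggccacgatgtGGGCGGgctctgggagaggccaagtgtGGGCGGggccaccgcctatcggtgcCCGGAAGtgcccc
Etfdh (chr3:79628768-79629017, minus strand): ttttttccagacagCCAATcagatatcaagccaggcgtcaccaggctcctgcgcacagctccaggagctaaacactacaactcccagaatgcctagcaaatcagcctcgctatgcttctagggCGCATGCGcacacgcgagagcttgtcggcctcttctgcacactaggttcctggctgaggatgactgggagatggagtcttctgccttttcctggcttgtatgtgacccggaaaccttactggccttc
Hadhb (chr5:30155003-30155252, plus strand): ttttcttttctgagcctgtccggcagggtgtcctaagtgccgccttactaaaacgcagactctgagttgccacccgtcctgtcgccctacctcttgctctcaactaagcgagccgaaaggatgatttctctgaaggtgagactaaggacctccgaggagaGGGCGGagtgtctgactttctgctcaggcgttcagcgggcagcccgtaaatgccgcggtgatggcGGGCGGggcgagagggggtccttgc
Acadm (chr3:153944644-153944893, minus strand): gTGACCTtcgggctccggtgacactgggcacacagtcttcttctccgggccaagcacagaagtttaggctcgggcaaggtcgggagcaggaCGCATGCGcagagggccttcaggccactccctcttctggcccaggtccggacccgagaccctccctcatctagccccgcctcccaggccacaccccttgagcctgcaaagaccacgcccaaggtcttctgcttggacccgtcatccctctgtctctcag
Hadha starts on the minus strand at base 30154980 of chromosome 5 and Hadhb on the plus strand at 30155253, so 272 bases lie between the starts, and the Hadhb stretch is 250 of them. On the arrays, the difference was -0.20 for Hadha and -0.13 for Hadhb.

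RefSeq gave such a stretch for 9 of the 10 genes. For Cpt1a it lay at bases 3323051 to 3323300 of chromosome 19, inside the gene, which RefSeq begins at base 3322326 on the plus strand. GGGCGG was in 6 of the 9 (Cpt1a, Cpt2, Acadl, Hadha, Hadhb and Hadh) against 32.7% of 32851 promoter windows over the genome, each searched over the same length. The 1 match of Hadha is the same site as 1 of the 2 of Hadhb, so that site counts for both genes. The share of G and C was 49.6 to 68.0% in the 9 stretches, against a median of 52.4% over all windows. AGGTCA was in 3 (Cpt1a, Acadm and Acadvl), against 14%. An exact repeat of it with 1 base between, the strictest form of the arrangement PPARs bind, was in 0 of 9, against 0.0335%. With 11 of 32851 windows holding it, a match in 9 windows was hardly possible. Inexact repeats were not searched, so the 0 says nothing about PPAR sites in these genes. GCATGCG was in 2 (Acadm and Etfdh), against 3.02%, CCAAT in 3 (Cpt1a, Hadh and Etfdh), against 33.8%, CCGGAAG in 1 (Cpt2), against 6.91%, and TATAAA in 0, against 12.4%. Cpt2 and Etfdh, which moved closely together over the arrays, held no motif in common among these 6. Such matches describe letters in these windows and do not show binding.

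The knockout difference was also taken within each array set, with 2 arrays a group, and the test of the difference between the sets, given after these values, passed in none of the 10 genes. Within set 1, knockouts 6 and 8 were below controls 1 and 2 on average for 10 of 10 genes, against 55% of all genes, with a median difference of -0.24. The values did not overlap, with both knockouts below both controls, in 8 of the 10 genes, against 23.7% of all genes. Within set 2, knockouts 9 and 10 were above controls 3 and 4 on average for 7 of 10 genes, against 53.4% of all genes, with a median of 0.06, and below them for 3, against 46.6%. There the values did not overlap in 5 genes (Cpt1a, Acadm, Acadl, Acadvl and Acaa2), all higher in knockout, against 11.4% of all genes. In set 1, 5 of the 10 had an unadjusted limma p under 0.05, all lower, against 4.28% of all genes, and 0 passed after adjustment over all genes (smallest adjusted p of the 10, 0.703). In set 2 the count at an unadjusted p under 0.05 was 0, against 1.34% of all genes.

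The difference between the sets was tested as the interaction of group and set. All 10 genes had a more positive knockout difference in set 2 than in set 1, as did 55% of all genes. For Cpt2 the difference was -0.54 in set 1 and -0.03 in set 2, an interaction of 0.52 (95% interval 0.09 to 0.94). For Cpt1a it was -0.24 and 0.13, an interaction of 0.37 (0.03 to 0.70), and for Acadvl -0.26 and 0.09, an interaction of 0.36 (0.06 to 0.66). These 3 had an unadjusted limma p under 0.05, where 3.24% of all genes did. After limma's adjustment over all genes none of the 10 passed (each adjusted p = 0.999987), and the background was 0%.

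**Figure D4:**
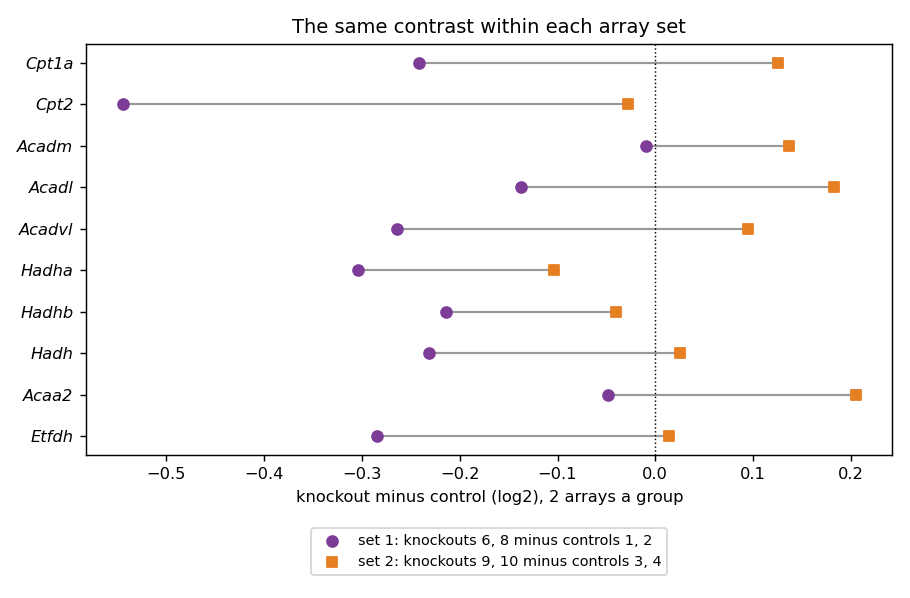
Knockout minus control on the log2 scale within array set 1 (purple circles) and array set 2 (orange squares), 2 arrays a group in each. Every gene lies further to the right in set 2, and Hadha is at -0.30 in set 1 and -0.10 in set 2.

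Levels were also set side by side between the sets within each group, with no test. Among controls, the level in set 1 was above that in set 2 for 10 of 10 genes, with a median difference of 0.32, and in all genes the median was -0.02. Among knockouts it was above for 7 of 10, with a median of 0.10 against -0.03 in all genes. Cpt2 averaged 0.69 higher in controls 1 and 2 than in controls 3 and 4, and Acadvl 0.48 higher.

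None of the other genes of the pathway passed the limma test over all genes, and the differences of those named ran from -0.86 for Acaca to 1.73 for Acot1. Of 13 other oxidation enzymes, listed as matrix enzymes without a compartment check, 11 were lower in knockout, with a median of -0.05. They averaged 10.70, 10.67, 10.66 and 10.66 on knockouts 6, 8, 9 and 10, and 10.87, 10.86, 10.65 and 10.58 on controls 1, 2, 3 and 4, so controls 1 and 2 were again the highest. Acad11, a member of the acyl-CoA dehydrogenase family, differed by -0.13 (-0.28 to 0.02), and Etfb, a subunit of the flavoprotein that feeds Etfdh, by -0.19 (-0.50 to 0.13). Etfb read 12.03 and 12.12 on controls 1 and 2, 11.58 and 11.57 on controls 3 and 4, and 11.57 to 11.67 on the 4 knockouts. Within the sets, 12 of the 13 were lower in set 1 and 1 of 13 in set 2.

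Of 5 measured genes of carnitine handling and acyl-CoA entry, 3 were lower and the median was -0.01. Crat, the carnitine acetyltransferase of the matrix and the peroxisome, read 10.21, 10.20, 10.16 and 10.11 in knockouts and 10.61, 10.47, 10.43 and 10.14 in controls. Every control but control 4 lay above all knockouts. Its difference was -0.24 (-0.47 to -0.01), with an unadjusted limma p of 0.0430 and an adjusted p of 0.999. Cpt1c, the brain-type isoform, differed by 0.06 (-0.26 to 0.39). All 3 genes that set malonyl-CoA, the inhibitor of the outer membrane enzyme, were lower without passing. Acaca, which makes malonyl-CoA, read 11.45, 11.65, 11.36 and 10.45 in knockouts and 12.84, 12.55, 11.93 and 11.05 in controls, with knockout 10 and control 4 low in their groups, a difference of -0.86 (-1.79 to 0.07). Mlycd, which breaks it down, differed by -0.16 (-0.33 to 0.02).

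Among 15 measured regulators of oxidation genes, 9 were lower and the median was -0.02. The 2 smallest unadjusted p-values were on the higher side. Ppargc1a, a coactivator that drives mitochondrial genes, read 7.78, 7.83, 7.09 and 7.29 in knockouts and 7.49, 7.22, 5.80 and 7.08 in controls, a difference of 0.60 (-0.22 to 1.42). Esrrg, an orphan nuclear receptor of oxidative tissues, differed by 0.84 (-0.29 to 1.96). Control 3 was the lowest array for both, at 5.80 and 4.55. It was also the lowest array for markers of ovary, oviduct and uterus, 6 of 6 higher in knockout with a median of 0.43, which averaged 6.23 to 6.74 in knockouts and 6.38, 5.69, 4.86 and 6.57 on controls 1, 2, 3 and 4. Of these, Greb1 read 4.92 and Foxj1 4.91 on control 3, and both were named after their values were seen. Over the 8 arrays Greb1 reached 10.12 and Foxj1 9.24, and Ovgp1 lay between 5.20 and 6.39. The other markers of the list were dim, with Pgr at 4.03 to 5.33, Cyp11a1 at 4.34 to 5.03 and Fshr at 4.85 to 5.18. On all 8 arrays the Y-linked genes Eif2s3y, Kdm5d and Uty read 10.12 to 10.54, 8.13 to 8.48 and 8.26 to 8.51. The cells behind Greb1 and Foxj1, and any part of them in Ppargc1a, Esrrg and Acot1, were not tested. Of 12 measured PPAR target genes 6 were lower, with Acot1, an acyl-CoA thioesterase, at 1.73 (-0.13 to 3.60) and Fgf21, a secreted metabolic hormone, at 0.29 (-0.06 to 0.64). Acot1 ranged from 4.75 on control 3 to 9.54 on knockout 10. The 2 measured ketone body genes were Bdh1, which makes hydroxybutyrate, at 0.25 (-0.99 to 1.48) and Oxct1, which uses ketone bodies, at -0.14 (-0.35 to 0.07).

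Of 11 measured genes of peroxisomal beta-oxidation, 8 were lower, with a median of -0.08. Ehhadh, the bifunctional enzyme, read 9.39, 9.36, 9.18 and 9.18 in knockouts and 10.23, 9.86, 9.24 and 9.76 in controls, a difference of -0.49 (-0.93 to -0.06, limma adjusted p = 0.999). Acaa1a, a peroxisomal thiolase, differed by 0.16 (0.000321 to 0.31, limma adjusted p = 0.999). Of 14 general mitochondrial genes, 11 were lower (median -0.05), with Hspd1, a matrix chaperonin, at -0.16 and Cycs, cytochrome c, at -0.15. These averaged 12.25, 12.20, 12.23 and 12.10 on knockouts and 12.41, 12.39, 12.12 and 12.11 on controls, the same pair of controls being highest as for the oxidation genes. Their medians were -0.14 in set 1 and 0.04 in set 2.

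The genes whose pattern was most like the mean of the 10, over the 8 arrays and among 7016 genes of at least moderate level and spread, were Supt3 (r = 0.996, rho = 0.952), a subunit of a histone acetyltransferase complex, Mrpl46 (r = 0.992), a mitochondrial ribosomal protein, Cbr4 (r = 0.990), a mitochondrial reductase, Mdh2 (r = 0.988), the matrix malate dehydrogenase, and Immt (r = 0.988), a protein of the inner membrane folds. An r over 0.9 was reached by 398 of the genes searched, 5.67%. Supt3 read 7.89, 7.72, 7.67 and 7.58 in knockouts and 8.44, 8.26, 7.53 and 7.37 in controls, and Mdh2 read 12.81, 12.78, 12.75 and 12.64 in knockouts and 13.05, 12.99, 12.65 and 12.57 in controls.

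Markers of other cells moved with some of these values. All 9 liver markers had lower means in knockout, and the list averaged 8.58, 7.30, 5.83 and 6.68 on knockouts 6, 8, 9 and 10 and 10.82, 7.95, 7.18 and 5.89 on controls 1, 2, 3 and 4. Control 1 was highest for liver markers and for the oxidation genes, and control 2, next highest for the oxidation genes, had liver markers below those of knockout 6. By array set, liver markers averaged 7.30 to 10.82 on the arrays of set 1 and 5.83 to 7.18 on those of set 2. Without control 1, 5 of the 10 genes were lower in knockout, and the median was -0.02. Without control 2, 7 were lower, and the median was -0.04. Of 7 measured adipocyte markers 3 were lower, and their mean ran from 13.66 to 13.83 in knockouts and from 13.47 to 13.79 in controls. Of 7 brown adipocyte markers 4 were lower, with means of 5.62 to 5.90 in knockouts and 5.54 to 6.04 in controls, and Zic1 lay between 3.03 and 3.26 on the 8 arrays. Others of that list moved in opposite directions. Prdm16 differed by 0.58 (0.19 to 0.96) and Elovl3 by -0.62 (-1.06 to -0.18), each with a limma adjusted p of 0.999. Both were named after their values were seen. Skeletal muscle markers averaged 5.26 to 5.38 in knockouts and 5.14 to 5.34 in controls, and Myh4 lay between 3.32 and 3.52. Neutrophil markers averaged 9.68 on control 4, against 6.09 to 6.67 on knockouts and 6.27 to 6.57 on the other controls. Of 7 macrophage markers 6 were lower, with means of 9.55 to 10.11 in knockouts and 9.90 to 10.63 in controls. Epididymis markers averaged 8.94 on knockout 8, against 4.83 to 5.44 on the other knockouts and 4.86 to 6.20 on controls. Some lists ran the other way over the controls, lower on controls 1 and 2 than on controls 3 and 4. Endothelial markers averaged 9.66, 9.39, 9.72 and 9.58 on knockouts 6, 8, 9 and 10 and 9.26, 9.44, 9.95 and 9.82 on controls 1, 2, 3 and 4. All 5 were lower in knockout, with a median of only -0.03. Within the sets, 0 of 5 were lower in set 1 and 5 of 5 in set 2. Fibroblast and progenitor markers were higher in knockout in 6 of 6, with a median of only 0.02. They averaged 10.34 to 10.93 in knockouts and 10.39, 10.45, 10.78 and 10.93 on controls 1, 2, 3 and 4. The 3 measured red blood cell markers, 1 lower and 2 higher in knockout, averaged 5.66 to 6.36 in knockouts and 5.51, 5.48, 6.29 and 6.65 on the same controls. Mesothelial markers, 4 of 5 lower, averaged 7.64 on knockout 6, 8.66 to 9.46 on the other knockouts and 8.67 to 9.59 in controls. Within set 2, 0 of 5 were lower. Krt19, named after its values were seen, read 9.88 to 10.32 in knockouts, above 9.20 to 9.80 in controls. Its difference was 0.44 (0.06 to 0.82, limma adjusted p = 0.999), where 1.7% of all genes had groups that did not overlap. The part of these cells in the oxidation genes was not tested.

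RNA quality was taken as the mean difference between 3′ and 5′ control probe sets. It was 0.85, 0.74, 1.96 and 0.60 on knockouts 6, 8, 9 and 10. On controls 1, 2, 3 and 4 it was 1.62, 0.64, 0.86 and 1.98. Controls 1 and 4, the highest and lowest arrays for the mean of the 10 genes, were both among the 3 highest arrays here. Control 2 was among the 2 lowest. With this measure as a covariate, 7 of the 10 genes were lower and the median was -0.10.

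**Figure D5:**
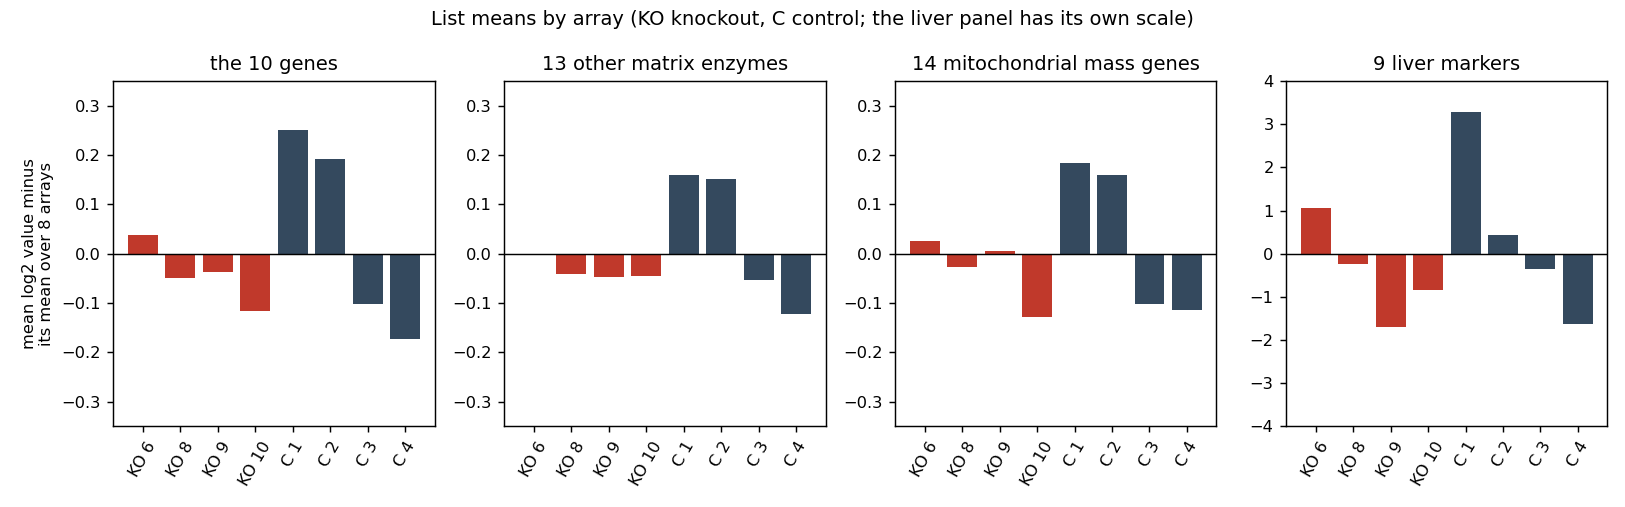
Mean log2 value of 4 gene lists on each array minus the list's mean over the arrays, knockouts (red) left of controls (grey), with a separate scale for liver markers. Controls 1 and 2 are the highest bars in the first 3 panels, at 0.25 and 0.19 for the 10 genes, while control 1 alone stands far above the rest for liver markers.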

How the data were processed

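The authors deposited 1 table of log2 values, made with RMA (background correction, normalization between arrays and summary per probe set) per the submitters' processing notes, of a version not given in the sources used here. These values ran from 2.71 to 14.83 and carry no detection calls. Of 45101 probe sets, 64 array controls were left out. A platform annotation of 2016 gave 1 symbol to 34945, several to 932 and none to 9160, and names came only from those with 1. Knockout was compared with control in limma 3.58.1 (R 4.3.3; lmFit, eBayes, no covariate) on all 18193 genes and on all 45037 probe sets, with Benjamini-Hochberg adjustment over each table and a threshold of 0.05. Intervals are of 95% and unadjusted. The step was tested on simulated data.

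The members, gene lists, motifs and array sets were chosen with earlier results of these data known. Of 181 list entries, 161 were measured, and the remaining entries are not analysed here. Named genes were the members, the 2 of each other pathway list with the smallest p, and the 5 of most similar pattern (Pearson r) among genes with a mean above the median and an SD of at least 0.1. Alternatives were a variance trend, a filter on dim values, other normalizations, array weights, the array set as a block or split, an RNA quality covariate, probe set means, another threshold and leaving out each array. Figures were drawn with matplotlib 3.10.9.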

Additional observations from a re-analysis of the deposited data

Results flagged for a closer look

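In 148 groups of 4 values, from 52 genes or probe sets named in the text and the means of 22 gene lists, 15 had 1 array far from the other 3 by Dixon's criterion, where chance flags about 5% of groups. Among the members, probe set 1442732_at of Hadhb read 7.29 on control 2, against 7.08 to 7.09 on the other controls, and 1458152_at of Etfdh read 3.75 on knockout 10, against 4.01 to 4.06 on the other knockouts. Xist read 6.20 on knockout 6, against 5.73 to 5.79 on the other knockouts, and 8.27 on control 1, against 5.55 to 5.79 on the other controls, and the mean of Xist and the Y-linked genes was 8.91 on control 1.

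The list means flagged on knockout 6 were low for carnitine handling and acyl-CoA entry (9.65) and macrophages (9.55) and high for the other matrix enzymes (10.70) and adipocytes (13.83). Those on knockout 9 were low for PPAR target genes (8.90) and brown adipocytes (5.62). The epididymis mean was high on knockout 8 (8.94) and on control 1 (6.20), the PPAR target mean on control 1 (9.42) and the neutrophil mean on control 4 (9.68). The PPAR target mean on control 1 included Cyp4a14 at 9.19, against 4.49 to 4.93 on the other controls.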

How the results depend on the processing

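No paired analysis was possible because the groups share no replicate numbers. No member passed under any alternative run (smallest limma adjusted p 0.552), and 0 genes passed under each of them. The number of the 10 genes lower in knockout was 3 within array set 2, against 7 over all arrays, and ran from 5 (without control 1) to 8 over the fits that left out 1 array. Over those fits the median ran from -0.16 (without control 4) to -0.02 (without control 1), and the probe sets past the threshold from 0 to 1. That one, Snx6 1451602_at, named after its value was seen, passed without control 4 (limma adjusted p = 0.0104). The interaction of group and set passed in 1 gene with array medians subtracted, H2-Eb1, also named after its value was seen (limma adjusted p = 0.0282), against 0 otherwise. Differences that turned in sign were Acadl with array weights (-0.0305), Acadm, Acadl and Acaa2 within set 1 (-0.00968, -0.14 and -0.0480), and Cpt1a, Acadvl, Hadh and Etfdh within set 2 (0.13, 0.0948, 0.0250 and 0.0138). Leaving out 1 array moved Cpt1a between -0.15 and 0.0576, Acadvl between -0.17 and 0.0116, Acadl between -0.0603 and 0.0697 and Acaa2 between -0.00616 and 0.14. The cause was not tested. Without detection calls, differences of the dim probe sets of Cpt2, Acadl and Etfdh may be compressed.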
